A study of Mus musculus with 25 samples.

Results

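The deposited gene table gives every gene a U-motif score, named as a top-10 U-motif measure, and the genes described here are the 200 with the highest scores. They were taken from the 7360 genes with a deposited cell number of at least 1000, out of 14103 genes in all, with ties broken by symbol. Their scores ran from 0.041 to 0.319 with a median of 0.05, against a median of 0.014 over the 7360 genes. Each was paired with the unused gene nearest in cell number among all genes scoring under 0.007, which gave 200 comparison genes scoring 0 to 0.0065. Of the 7360 genes, 1644 score under 0.007. The cell numbers of a pair differed by a median of 1 and at most 19. The cut falls inside a tie: 17 genes score 0.041, of which 8 are members, the last 3 of them with cell numbers of 3810, 1698 and 1404, and the first 3 outside with 3325, 6737 and 4933. No source used here says how the score was computed or which letters it counts, so it is used only to rank genes. Of the 200 genes, 59 belong to families such as ribosomal proteins, proteasome subunits, respiratory chain subunits and cell cycle regulators. These 59 enter every count below and are not named.

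YTHDC2, a helicase that unwinds RNA and carries a YTH domain, is needed by male germ cells to stop mitotic divisions and carry on with meiosis. It acts with MEIOC and RBM46, and it recruits the exonuclease XRN1. Many RNA-binding proteins recognise short runs of uridine in the transcripts they bind, and U-rich stretches in a transcript can set its stability or its translation. Spermatogonia, the dividing cells, give rise to spermatocytes, which replicate their DNA once and enter the long prophase of meiosis, beginning with the leptotene and zygotene stages.

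The cells came from mouse testis at postnatal day 10 and had been sorted as 4N, a DNA content shared by spermatogonia that have replicated and by spermatocytes in meiotic prophase. There was 1 wild-type (WT) library of 1151 cells and 2 libraries of Ythdc2 knockout (KO) cells, called KO A (1522 cells) and KO B (1855 cells). For the knockout line the labels refer to earlier work, and they give B6D2F1, a hybrid of C57BL/6 and DBA/2, for the embryos in which the other mutant lines of the series were made. The sample titles say embryo beside P10, and the age label was followed. The labels do not say if separate animals gave the 2 KO libraries, so the p values speak of the spread between libraries, which may be technical.

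The libraries held 16342955 (WT), 18089957 (KO A) and 25447581 (KO B) UMIs, the median cell held 12827, 9760 and 12091, and the median mitochondrial share was 5.59%, 9.11% and 6.64%. Ythdc2 itself was at 2.35 normalised UMIs per cell in WT against 0.539 in KO A and 0.508 in KO B, lower in both KO libraries but not at 0. The UMIs left cannot be placed inside or outside the altered part of the gene. Of 10 germ cell markers 9 were in the table, and their sum was 5049, 5014 and 4940 counts per 1000000 UMIs. Sertoli markers summed to 20.1 to 35.5, myoid and stromal markers to 114 to 169, and red blood cell markers to 0.61, 153 and 1.06, with the KO A globin UMIs in cluster 2. The authors' clusters are numbered: 1 for undifferentiated and 2 for differentiating spermatogonia, 3 for leptotene-zygotene spermatocytes, and 4 and 5 for clusters whose names combine differentiating spermatogonia and leptotene-zygotene cells. No cell barcode was shared between libraries as the barcodes are written (0 shared), but 5 barcodes carried a suffix. A suffix can hide a repeat, so this count cannot exclude shared barcodes. Whether the 5 repeat another barcode was not tested.

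Levels below are normalised UMIs per cell, the mean over a library's cells of the UMI count divided by the cell's deposited size factor. KO was compared with WT by limma on log2(level + 0.01), with Benjamini-Hochberg adjustment over all genes tested, and an adjusted p under 0.05 made a call. Folds are ratios of mean levels, and log2 differences are KO minus WT on the log2(level + 0.01) scale, where low genes appear to change less than they do. With 1 WT library the spread comes from the 2 KO libraries, and the WT library is taken to vary by the same amount. Limma also draws each gene's spread toward that of genes at a similar level.

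The 200 genes lie on 20 chromosomes, 5 of them on X, and all 200 are protein-coding in RefSeq. The upstream DNA of 3 genes named below is printed to show what precedes 2 that were lower in KO (Iqcb1 and Cep290) and 1 that was higher (G2e3), since a U-rich transcript need not have T-rich DNA in front of it. The stretches end at the base before the annotated gene, are from RefSeq on GRCm38.p6, are read 5′ to 3′ on the plus strand, which is the strand of all 3 genes, and carry in capitals any run of TTTTT or of AAAAA, its reverse complement.
Iqcb1 (chr16:36828150-36828359): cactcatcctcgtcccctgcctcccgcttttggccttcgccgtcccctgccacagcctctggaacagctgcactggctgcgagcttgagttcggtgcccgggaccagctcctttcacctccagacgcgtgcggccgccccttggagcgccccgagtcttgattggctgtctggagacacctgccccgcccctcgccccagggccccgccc
Cep290 (chr10:100487332-100487547): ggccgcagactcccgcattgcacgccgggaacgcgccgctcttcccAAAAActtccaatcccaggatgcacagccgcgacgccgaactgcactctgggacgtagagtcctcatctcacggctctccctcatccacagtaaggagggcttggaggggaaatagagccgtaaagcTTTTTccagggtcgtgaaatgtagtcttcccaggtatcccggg
G2e3 (chr12:51347980-51348229): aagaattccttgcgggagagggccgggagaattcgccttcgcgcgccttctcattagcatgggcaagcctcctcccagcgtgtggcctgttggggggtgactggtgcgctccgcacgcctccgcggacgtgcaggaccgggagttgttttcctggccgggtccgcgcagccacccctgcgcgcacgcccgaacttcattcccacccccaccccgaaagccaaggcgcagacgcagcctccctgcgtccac
Cep290 has 2 such runs, and the other stretches have 0. Their GC share was 69.5%, 58.8% and 67.6%. Over the first listed start of each gene, the 250 bases upstream were available for 165 members, with a median T share of 18.8%, for 170 comparison genes with 19.6%, and for 6045 of the 7360 genes with 18.8%. A run of TTTTT or AAAAA was present in 29.7% of the members' stretches, 38.8% of the comparison genes', 29.4% of those of the 6045 genes and 40.1% of all 27025 stretches in the table. By this measure the members' upstream DNA holds T about as often as that of other genes. Transcript sequences were not used here. The members' genes spanned a median of 21308 bases, against 15340 for the comparison genes and 24637 for the 7360 genes.

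Over all germ cells of a library, more of the 200 genes were lower than higher in KO. Of the 200, all of which passed the level filter, 14 were higher and 46 were lower (7.00% and 23.0%), where 18.3% of all 9637 genes tested were called higher and 14.8% lower. The comparison genes, with the same cell numbers, were split evenly, with 32 higher and 32 lower. The balance over all genes depended on the tool: limma called more of them higher than lower, while DESeq2 called 5.82% higher and 6.76% lower. With DESeq2 5 of the 200 members were higher and 22 lower, and 15 and 16 comparison genes. The median log2 difference was -0.125 for the 200 genes, -0.037 for the comparison genes and 0.021 for all genes tested. The members' median was -0.143 in KO A and -0.108 in KO B. The median of the comparison genes rests on how they were chosen: it was -0.051 for matched genes scoring under 0.004, 0.019 for the 200 lowest scores, and -0.057 with DESeq2. Both KO libraries lay below WT for 112 of the 200 genes (56.0%), against 40.4% of all genes, and both lay above it for 59 (29.5%), against 46.0%. The comparison genes lay between, with 48.0% below and 41.5% above. These counts describe the list, and the difference between lists was not tested. The libraries were also made up of different cells. Cluster 3 supplied 427 of the 1151 WT cells and was empty in KO, while WT had only 24 cells in cluster 4 and 1 in cluster 5. Folds and p values over all germ cells, here and below, therefore do not separate a change within like cells from a change in the mix of cells.

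**Figure D1:**
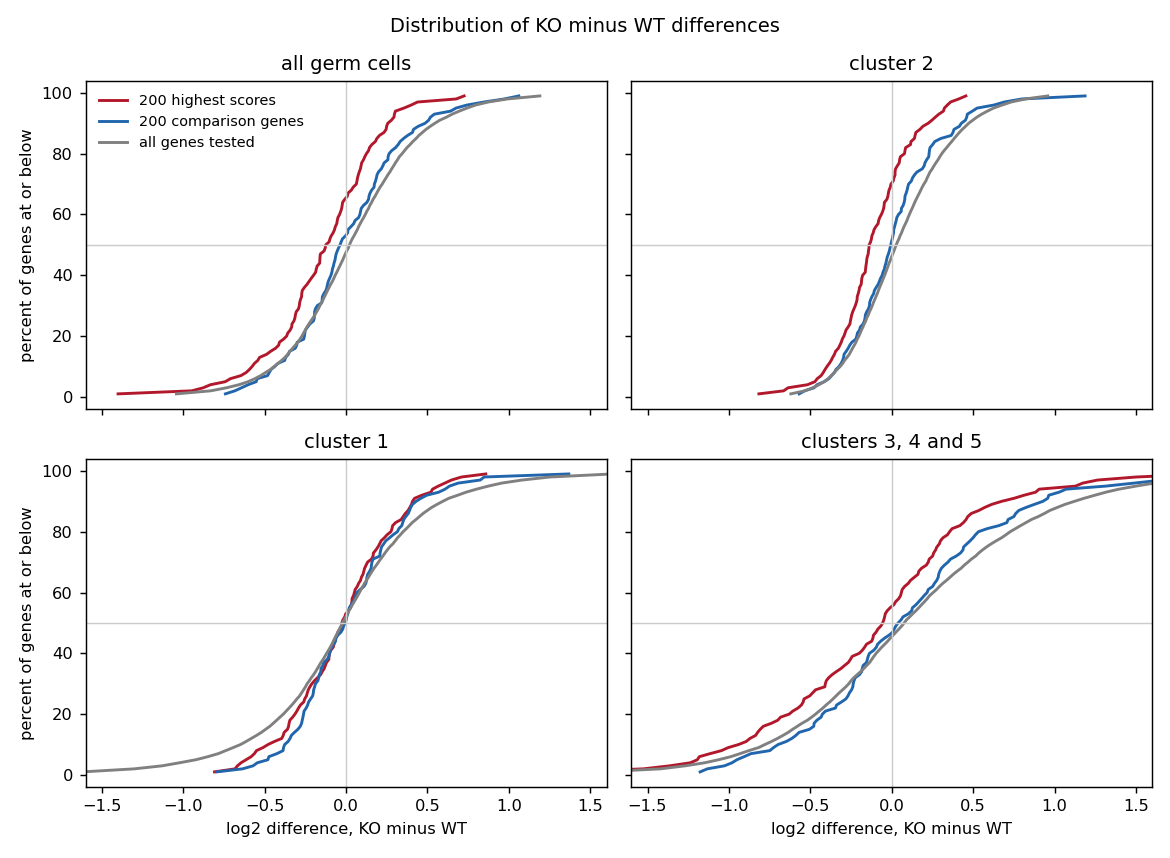
Cumulative distribution of log2 differences (KO minus WT, horizontal axis) in each class of cells; the vertical axis is the percent of genes at or below a value, shown from the 1st to the 99th percentile. The line of the 200 genes lies left of the other lines around 0 over all germ cells, in cluster 2 and in clusters 3, 4 and 5, and overlaps that of the comparison genes around 0 in cluster 1.

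Between pairs of libraries, the median absolute difference of the 200 genes was 0.25 between KO A and WT, 0.204 between KO B and WT and 0.109 between KO A and KO B. A log2 difference of 0.5 or more below WT was found for 30 of them in KO A and 21 in KO B, against 9.12% and 7.32% of all genes tested, and above WT for 7 in each, against 12.8% and 11.5%. Of the 200 comparison genes, 16 (KO A) and 13 (KO B) were below WT by that much, and 25 and 17 were above it. Between KO A and KO B, 5 members were lower in KO A by that much, against 1.04% of all genes, and 0 were higher, against 0.529%. The median of KO A minus KO B over the 200 genes was -0.034, and KO A was also the library with fewer UMIs per cell and a higher mitochondrial share. The part of depth, mitochondrial share and the mix of cells in the difference from WT was not tested.

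Along the whole range of scores the median difference moved gradually. In bins of score chosen after the results were known, the median over all germ cells was 0.082 for 953 genes scoring 0.001 to under 0.007, 0.012 up to 0.014, -0.016 up to 0.021, -0.03 up to 0.028 and -0.068 for the 694 genes just under the members. The 691 genes scoring 0 were an exception, at -0.036. Called genes followed: 21.5% higher and 10.9% lower in the bin under 0.007, 13.4% and 21.9% in the bin just under the members. The median cell number rose along the same bins, from 2464 to 3738, so score and breadth of detection move together in these data.

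**Figure D2:**
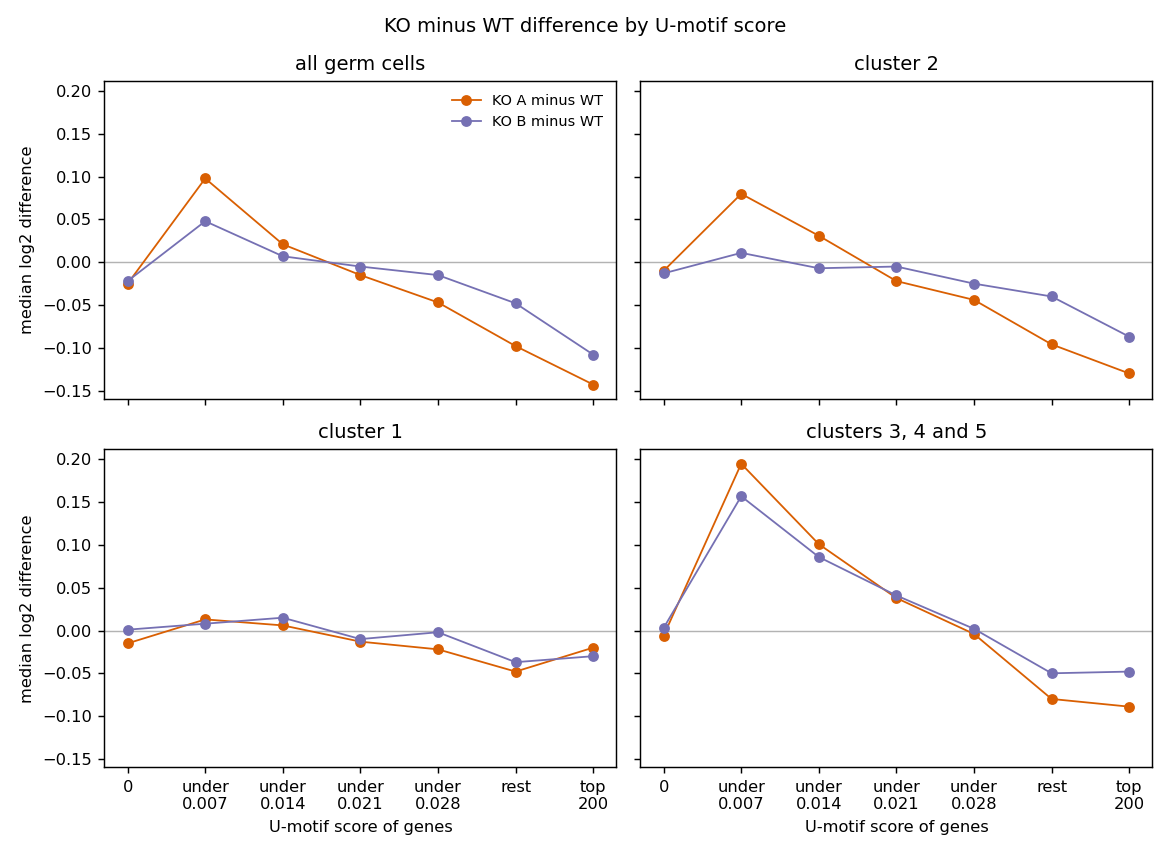
Median log2 difference from WT (vertical axis) for KO A and KO B in bins of the U-motif score (horizontal axis, each bin ending under the number shown, with the genes between 0.028 and the members as rest). Both libraries go down from the bin under 0.007 to the top 200 over all germ cells and in clusters 3, 4 and 5 except for small steps at the end, while genes scoring 0 lie near 0 and cluster 1 stays between -0.048 and 0.015.

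Split by cell number, the members differed most from other genes where detection was narrow. Among genes with cell numbers from 1000 to under 2500, the median difference over all germ cells was -0.102 for 56 members and 0.121 for 2833 other genes, with 4 members higher and 15 lower (7.14% and 26.8%), where 679 of the others were higher and 305 lower. From 2500 to under 4500 cells it was -0.04 for 68 members and -0.013 for 2620 others, and 9 members were higher and 10 lower, 13.2% and 14.7% against 16.3% and 17.9%, which is near the others. At 4500 or more cells it was -0.257 for 76 members and -0.145 for 1707 others, with 1 member higher and 21 lower. The share of members lower there, 27.6%, was near the 23.2% of the others, and 1.32% against 5.45% were higher. The 141 members outside the unnamed families had 10 higher, 32 lower and a median of -0.109, and the 59 within them had 4 higher, 14 lower and a median of -0.158.

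Most of the genes with the highest scores of all were not called by limma. Utp18, a protein of the complex that processes the small ribosomal subunit RNA, lies on chromosome 11 (93859243 to 93885766, GRCm38.p6) and has by far the highest score, 0.319. Its level was 2.69 in WT against 2.16 in KO A and 2.02 in KO B. Both KO libraries lay below WT, by 1.29-fold in the mean (log2 -0.36, SE 0.12, limma adjusted p = 0.0198), a call that was lost with DESeq2 (adjusted p = 0.0599). Zfp706, a small zinc finger protein, scores 0.134 and was at 3.83, 3.80 and 3.35. Aaas, the nuclear pore protein aladin, scores 0.118 and was at 1.27, 1.37 and 1.18, with WT between the KO libraries. Prdx1, a peroxiredoxin that removes hydrogen peroxide, scores 0.091 and was at 12.2 in WT against 8.63 in KO A and 9.88 in KO B, which did not pass limma's test (adjusted p = 0.0986) but passed that of DESeq2 (log2 -0.41, adjusted p = 0.0232). Of the 12 highest scoring genes outside the unnamed families, 2 were called by limma over all germ cells: Utp18 and Tsfm, which went in opposite directions. Within the 100 highest scores there were 8 genes higher and 20 lower, where 18.3% and 14.8% of all genes were, and the median was -0.096.

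Genes of the centrosome, the cilium and the spindle gave several of the larger differences and went both ways. Of 9 such members, 3 fell (Iqcb1, Cep290 and Odf2l) and 1 rose (Hyls1) over all germ cells, where 14.8% of all genes were called lower and 18.3% higher. Iqcb1 and Cep290 encode partners at the transition zone, the base of the cilium, and lie on chromosome 16 (36828360 to 36872719) and chromosome 10 (100487548 to 100575671). Iqcb1 was at 3.22 in WT against 1.76 in KO A and 1.59 in KO B. Both KO libraries were well below WT. The KO mean was 1.67 ± 0.121 (SD, n = 2), 1.92-fold lower (log2 -0.94, SE 0.12, limma adjusted p = 1.26e-06). Cep290 was at 1.39, 0.727 and 0.777, 1.85-fold lower, with an adjusted p from limma of 1.73e-06. Odf2l, a protein of centrioles, was at 0.783, 0.468 and 0.463. Hyls1, needed to turn a centriole into the base of a cilium, was at 0.368 in WT against 0.434 in KO A and 0.550 in KO B (adjusted p = 0.0249), a call that was lost with TMM scaling (adjusted p = 0.0542), with edgeR, with DESeq2 and without cells holding somatic UMIs. Alms1, Aspm, Ppp1r35, Cep44 and Cetn3 were not called over all germ cells.

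The 4 members with roles known mainly from germ cells did not move together. Adad1, a testis protein with a double-stranded RNA binding domain, lies on chromosome 3 (37063656 to 37111512). It was at 0.544 in WT against 0.2003 in KO A and 0.202 in KO B. The KO libraries were almost equal. It was 2.71-fold lower in KO (log2 -1.39, SE 0.14, limma adjusted p = 2.90e-08), the smallest p of all named members. Xlr, an X-linked gene related to the synaptonemal complex protein SYCP3, was at 0.453, 0.254 and 0.262, 1.76-fold lower (adjusted p = 6.67e-05), though it has near-identical relatives on X among which reads may be split. Cyct, the testis form of cytochrome c, rose (log2 0.43, adjusted p = 0.0346). Topaz1, a germ cell protein needed for male meiosis, scores 0.083 and was at 0.630, 0.637 and 0.553, with WT between the KO libraries.

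Of 3 genes grouped by symbol as cell division regulators, 2 (Cdk11b and Mtbp) were called lower, and Ect2 was not. Of all genes, 14.8% were called lower and 18.3% higher. Cdk11b, a cyclin-dependent kinase that acts in transcription and splicing, was at 4.15, 2.67 and 2.66, 1.56-fold lower (adjusted p = 3.19e-04), and Mtbp, an initiation factor of DNA replication, also fell (log2 -0.41). The kinase gene Cdkl2 was at 0.890, 0.584 and 0.538 (1.59-fold lower, adjusted p = 1.08e-04). Of 7 members of the ubiquitin system 2 fell (Plaa, log2 -0.50, and Skp1a, a core subunit of SCF ligases, log2 -0.54) and G2e3 rose. G2e3 is a ubiquitin ligase whose message is known to be high in the G2 and M phases. It lies on chromosome 12 (51348230 to 51376986) and was at 0.689 in WT against 1.12 in KO A and 1.18 in KO B, 1.67-fold higher (log2 0.73, SE 0.11, adjusted p = 1.78e-05).

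The remaining nameable rises were spread over several roles, as single genes or pairs, where 18.3% of all genes were called higher and 14.8% lower. Of 8 members of the nuclear pore, envelope and transport group, 7 were not called and Lbr rose. Lbr, an inner nuclear membrane receptor that tethers heterochromatin, was at 0.651, 0.947 and 1.03, 1.52-fold higher (adjusted p = 2.53e-04). Of 8 members of mitochondrial gene expression and import, Tsfm rose and Pam16 and Pmpcb, parts of protein import and processing, fell. Tsfm, the mitochondrial elongation factor Ts, was at 0.633 in WT against 1.07 in KO A and 0.992 in KO B, 1.63-fold higher (log2 0.70, adjusted p = 4.06e-05). Supv3l1, a mitochondrial RNA helicase that scores 0.082, was at 0.372, 0.402 and 0.349. Among 11 members of membrane traffic and membrane proteins, 2 rose and 4 fell. Pxk, a PX domain protein, was at 0.15, 0.291 and 0.222 (1.71-fold higher, adjusted p = 0.00113), and Lrp5, a Wnt co-receptor, rose by 0.74 on the log2 scale.

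In RNA processing, the largest assigned role with 18 members, 0 rose and 2 fell over all germ cells (Hnrnpl, log2 -0.31, and Zcrb1, log2 -0.33). Of all genes tested, 18.3% were called higher and 14.8% lower. The counts by role that follow are small and are a description. Sf1, which binds the branch point of introns, was at 1.497, 1.39 and 1.41, and Safb, a scaffold attachment factor that binds RNA, at 2.65, 2.14 and 2.25 (adjusted p = 0.0809). For comparison, a list of 158 tested splicing genes, 9 of them members, had 10 higher and 18 lower and a median of -0.097. A list of 55 nuclear transport genes with 6 members had 3 higher, 3 lower and a median of 0.008, and its median score of 0.02 over genes in at least 1000 cells was the highest of 21 lists. Of 12 members of DNA replication and repair, 3 fell (Rbbp8, the end resection factor CtIP, Tipin and Ube2t) and 1 rose (Rev1). Rbbp8 had the largest of these differences (log2 -0.49, adjusted p = 0.00205). Of 9 chromatin members, Fam208b and Hmgn3 fell and Phf10 rose. Of 9 transcription genes 1 fell (Ciart, a circadian repressor, log2 -0.56), and of 6 translation and tRNA genes 0 were called. Depdc7, with no role assigned here, was at 1.13 in WT against 0.514 in KO A and 0.777 in KO B. It was called lower (adjusted p = 1.38e-04), but the KO libraries differ, and DESeq2 gave an adjusted p of 0.299.

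**Figure D3:**
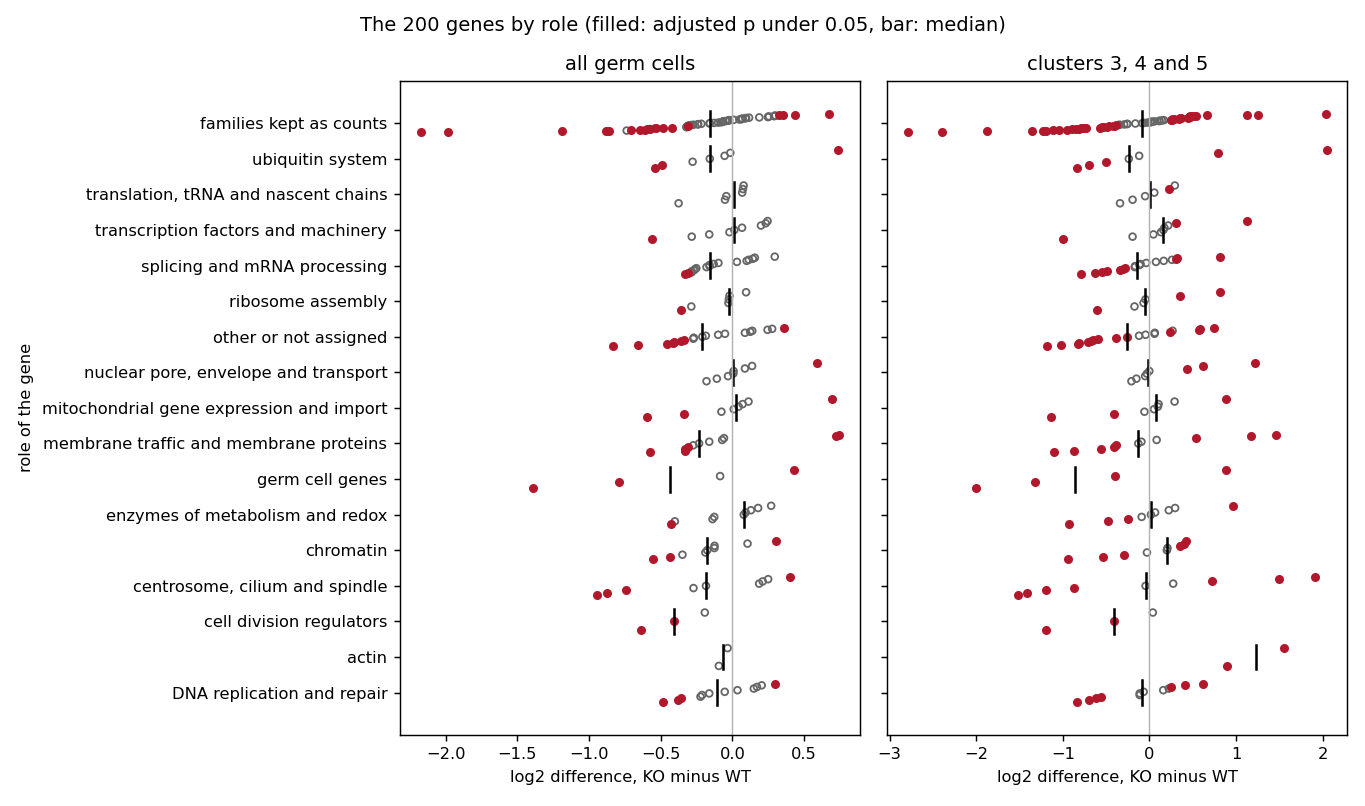
Log2 difference (KO minus WT, horizontal axis) of each of the 200 genes, grouped by role on the vertical axis, over all germ cells and in clusters 3, 4 and 5; a role with 1 member is left out. Over all germ cells the germ cell genes reach -1.39 and the centrosome, cilium and spindle genes span -0.94 to 0.40, while the nuclear pore group stays near 0 except for Lbr.

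In cluster 2, which has many cells of both genotypes (654 WT, 529 KO A and 814 KO B), the list as a whole sat below WT while few single genes passed the test. Of 199 members tested, 1 was higher and 7 were lower (0.503% and 3.52%), where 2.87% and 1.43% of all 9435 genes were called. The comparison genes had 9 higher and 3 lower. The members' median was -0.139, -0.13 in KO A and -0.087 in KO B, against -0.006 for the comparison genes and 0.027 for all genes. The comparison median moved with the tool, to -0.039 with TMM scaling, -0.04 with edgeR and -0.054 with DESeq2. The members' median was then -0.155, -0.152 and -0.169. Both KO libraries lay below WT for 119 members (59.8%), where 36.8% of all genes did so, and above it for 43 (21.6%), where 44.2% did so. The number of calls rests on the test. With limma on log2 CPM after TMM scaling 6 members were higher and 20 lower, where 8.60% and 6.71% of all genes were called and the comparison genes had 18 and 18. With DESeq2 0 members were higher and 3 lower, where 0.287% and 0.265% of all genes were called and the comparison genes had 2 and 2. In this cluster the median cell held 14306 UMIs in WT against 9669 in KO A and 11798 in KO B, while the mitochondrial shares were 5.68%, 9.80% and 7.03%; the part of these in the shift was not tested.

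The named genes called lower over all germ cells, Depdc7 excepted, were closer to WT in cluster 2. Iqcb1 was at 1.01, 0.565 and 0.646 (1.66-fold lower, limma adjusted p = 0.0174), and DESeq2 gave an adjusted p of 0.0643. Adad1 was at 0.287, 0.166 and 0.153 (1.80-fold lower, adjusted p = 0.038), a call lost without doublets (adjusted p = 0.0626) and with DESeq2 (adjusted p = 0.178). Depdc7 was at 0.799, 0.275 and 0.514 (limma adjusted p = 0.0431, 0.0798 without doublets and 0.684 with DESeq2). Pmpcb was the other nameable member called lower. Cep290 was at 0.813, 0.655 and 0.732 and Odf2l at 0.584, 0.470 and 0.474, neither called by limma on these levels. Cep290 passed with TMM scaling (log2 -0.36, adjusted p = 0.0439) and with edgeR (adjusted p = 0.0422). Prdx1 was lower with TMM scaling (log2 -0.63, adjusted p = 0.028), edgeR (0.0478) and DESeq2 (0.0247), and was not called by limma on these levels. G2e3 was at 0.907, 1.07 and 1.12 and Tsfm at 0.607, 0.854 and 0.815, above WT in both KO libraries but short of the threshold (limma adjusted p = 0.185 and 0.0565). Tsfm passed with TMM scaling (adjusted p = 0.0142), with edgeR (0.0151) and without cells holding somatic UMIs (0.0456). The last of these settings took only 1 cell out of cluster 2, from KO A.

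**Figure D4:**
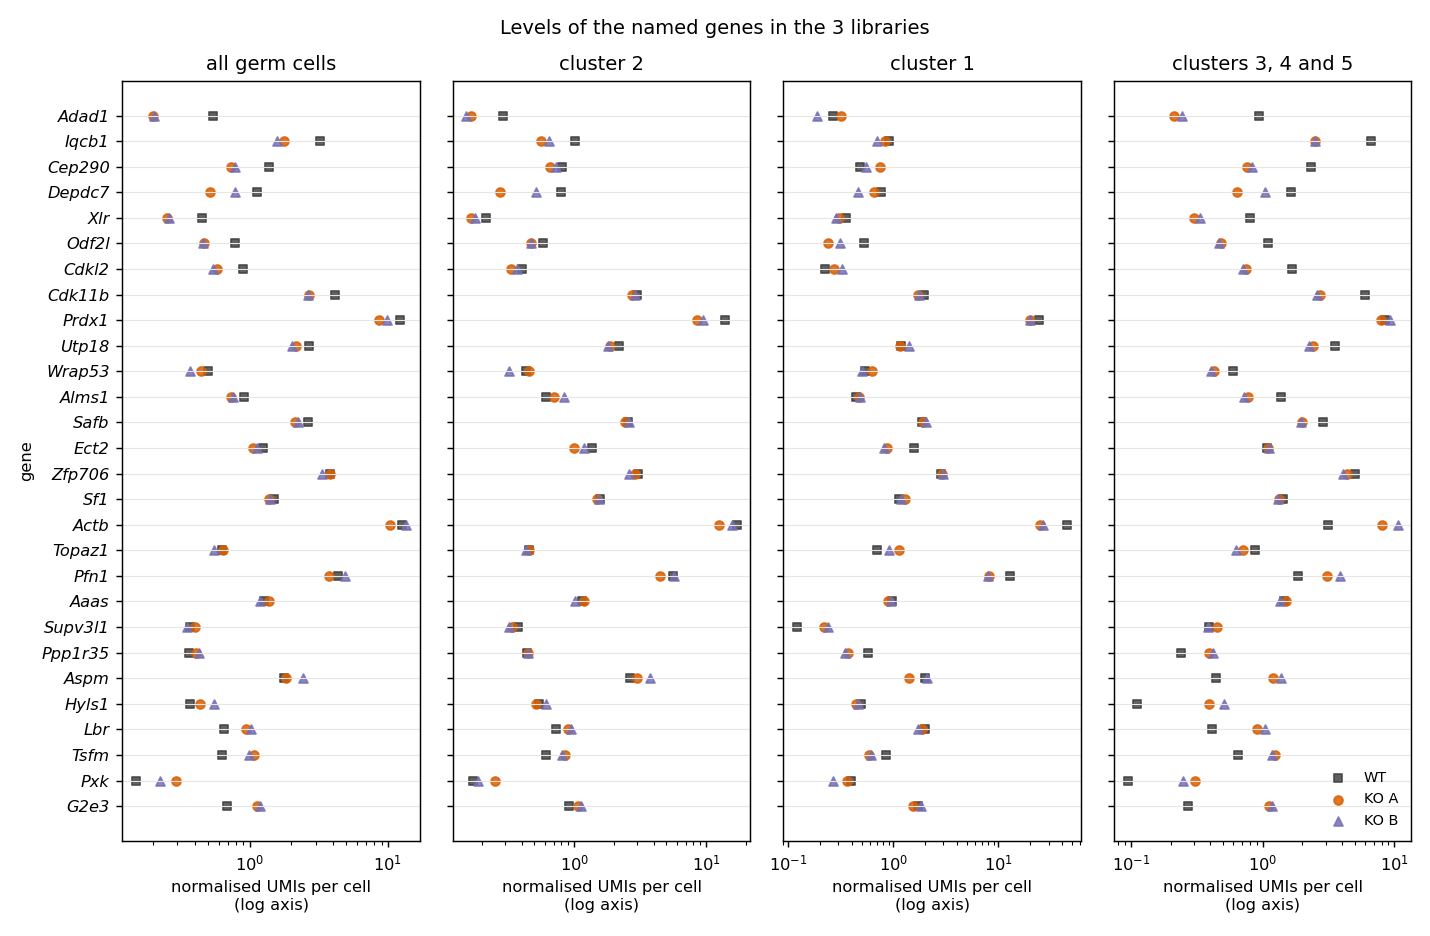
Level of each named gene (normalised UMIs per cell, logarithmic axis) in WT, KO A and KO B for 4 classes of cells, with genes ordered by their difference over all germ cells. WT stands furthest from the KO libraries in clusters 3, 4 and 5, where Adad1 is at 0.944 in WT and below 0.25 in both KO libraries.

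Cluster 1 held 45 WT, 66 KO A and 90 KO B cells, and the list's median there was close to that of all genes. Of 199 members 0 were higher and 5 were lower by limma, where 0.644% and 2.20% of all 11180 genes were called. An unadjusted limma p under 0.05 was found for 34 of the 199 members, 29 of 200 comparison genes and 1807 of all 11180 genes. The median was -0.026, against -0.004 for the comparison genes and -0.022 for all genes. The nameable calls were Actb, Pfn1 and Ect2, which act in the actin skeleton and in cell cleavage. Actb, cytoplasmic actin, was at 45.2 in WT, with a KO mean of 25.8 ± 1.19 (SD, n = 2). Pfn1, the actin-binding profilin, was at 12.8, 8.08 and 7.99. Ect2, which activates RhoA for cytokinesis, was at 1.56, 0.872 and 0.823. TMM scaling, edgeR and DESeq2 each called 0 members in this cluster, with adjusted p of 0.13, 0.294 and 1.0 for Actb, and they called 1.09%, 0.590% and 0.0268% of all genes lower. Myoid and stromal markers, all 10 detected in each library, summed to 2787 counts per 1000000 UMIs in WT cluster 1, 1429 (KO A) and 1652 (KO B), and their part in the actin values was not tested. Without the cells holding 10 or more somatic UMIs (10 of the 45 WT cells), 9 members were lower, where 2.48% of all genes were. Among these 9 were 2 of the 5 calls made with all cells, and Ect2 was no longer called (log2 -0.39, limma adjusted p = 0.397). A test of the difference between clusters 2 and 1 in the KO effect called 0 of 198 members and 0.00% of all 9098 genes. In that test 14 of the 198 members and 1353 of all 9098 genes had an unadjusted p under 0.05. Limma with TMM scaling called 1 member.

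Clusters 3, 4 and 5 were compared together because cluster 3 held 427 WT cells and 0 KO cells, while cluster 4 held 592 KO A, 441 KO B and 24 WT cells and cluster 5 held 335, 510 and 1. The clusters were made from the same genes, so cell state and genotype cannot be told apart in this comparison. The prior degrees of freedom of this fit were infinite, so each gene was given the spread of genes at a similar level. The limma p values for these clusters therefore do not measure a gene's own spread between libraries. Of the 200 members 52 were higher and 72 lower (26.0% and 36.0%), where 37.4% and 29.1% of all 9299 genes were called. The comparison genes had 71 higher and 57 lower. The members' median was -0.056, against 0.039 for the comparison genes and 0.076 for all genes, but comparison genes scoring under 0.004 had a median of -0.05. With DESeq2 24 members were higher and 60 lower, and the comparison genes had 35 and 45. DESeq2 called 18.5% of all genes higher and 20.2% lower, so that the balance over all genes turned with the tool.

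The middle 50% of the members' log2 differences spanned -0.539 to 0.277 here, wider than over all germ cells (-0.32 to 0.088). Adad1 was at 0.944 in WT against 0.211 in KO A and 0.245 in KO B, 4.14-fold lower. Iqcb1 was at 6.65, 2.50 and 2.48, and Cep290 at 2.31, 0.766 and 0.837. Odf2l (2.31-fold), Xlr (2.55-fold), Cdkl2 (2.28-fold), Cdk11b (2.28-fold) and Depdc7 (1.98-fold) were lower too, and so was Alms1, a centrosome protein, at 1.38, 0.772 and 0.725. All of these had limma adjusted p of 1.70e-15 or less, though DESeq2 did not call Depdc7 (adjusted p = 0.14).

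Some members linked to mitosis or the cell skeleton were higher in KO in clusters 3, 4 and 5, while others were lower or not called. G2e3 was at 0.271 in WT against 1.12 in KO A and 1.18 in KO B, 4.25-fold higher (log2 2.05). Hyls1 was at 0.111, 0.389 and 0.508, and Aspm, which organises spindle poles, at 0.445, 1.19 and 1.37. Actb was at 3.14, 8.09 and 10.6 and Pfn1 at 1.84, 3.07 and 3.86, the opposite of their direction in cluster 1. Lbr (2.37-fold), Pxk (2.96-fold), Tsfm (1.86-fold) and Ppp1r35, a centriole protein (1.68-fold), were also higher.

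By role, 3 members of the nuclear pore group rose in clusters 3, 4 and 5 (Lbr, Nup37 and Ranbp1) of 8 and 0 fell, where 37.4% of all genes were called higher and 29.1% lower. Of the 18 RNA processing genes 3 rose and 7 fell. Of the 3 genes grouped as cell division regulators 0 rose and 2 fell (Cdk11b and Mtbp). Of 9 centrosome, cilium and spindle genes 3 rose and 4 fell, and of 4 germ cell genes 1 rose (Cyct) and 3 fell, of which Topaz1 was not called with DESeq2 (adjusted p = 0.0636). With so few members a role, these counts are a description. Among 6 ribosome assembly genes Utp4 and Ddx18 rose and Utp18 fell, at 3.53 in WT against 2.39 in KO A and 2.25 in KO B. Wrap53, which carries telomerase to Cajal bodies, scores 0.083 and was at 0.595, 0.428 and 0.406 (adjusted p = 2.09e-04).

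Cluster 4 is the cluster of these with more than 1 cell in each library, and some of these gaps were smaller within it. There the 200 genes had a median of -0.015, against 0.068 for the comparison genes and 0.082 for all genes tested in the 3 clusters, and 101 of 200 lay below WT. These are values with no test, and WT has only 24 cells, of which 2 were called doublets, at a mitochondrial share of 12.3%. Iqcb1 was at 2.24 in those WT cells, against 6.902 in WT cluster 3, and at 2.04 in KO A and 1.95 in KO B. Aspm was at 1.99 in WT, against 1.21 and 1.13 in KO, so that its direction turned. Actb was at 6.77, 6.74 and 8.16. Adad1 kept its direction, at 0.665 in WT against 0.189 and 0.221, and so did Tsfm, at 0.465 against 1.15 and 1.21, and Cep290, at 0.985 against 0.649 and 0.671. G2e3 was at 0.856 in WT against 1.14 in KO A and 1.27 in KO B.

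The 200 genes took up 4.99% of all UMIs in WT against 4.32% in KO A and 4.73% in KO B, while the comparison genes held 4.07%, 3.88% and 3.94%. In cluster 2 the members' shares were 5.08%, 4.24% and 4.80%, and in cluster 1 they were 5.66%, 4.92% and 5.13%. Over all germ cells, a few abundant genes held much of this share. The 10 most abundant members, picked in each library separately, gave 40.0% of the members' UMIs in WT against 33.4% in KO A and 38.5% in KO B. All 10 in WT and in KO A, and 9 of 10 in KO B, belonged to the unnamed families. The other member of the top 10 in KO B was Actb. Without each library's own 10, the members held 29931, 28769 and 29075 counts per 1000000 UMIs, and the 141 nameable members 20056, 19170 and 19618.

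Along the WT clusters, the members' share of UMIs fell while their median level per gene did not. The share was 5.66% in cluster 1, 5.08% in cluster 2 and 4.78% in cluster 3, against 4.05%, 4.01% and 4.21% for the comparison genes. The level was highest in cluster 1 for 65 members, in cluster 2 for 61 and in cluster 3 for 74, and the median level per gene was 81.1, 84.7 and 91.1 counts per 1000000 UMIs. From cluster 1 to cluster 2 the members' median log2 step was 0.117, beside 0.136 for the comparison genes and 0.128 for the 7360 genes. From cluster 2 to cluster 3 the members' median log2 step was 0.046, while the comparison genes stepped by -0.155 and the 7360 genes by -0.089. In KO the step from cluster 2 to cluster 4 was -0.014 (KO A) and -0.034 (KO B), and to cluster 5 it was 0.091 and 0.07. Comparison genes stepped by -0.076 and -0.012, and by -0.101 and -0.033. The WT step and the KO steps end in different clusters and are set side by side only.

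The cell table carries a U-motif sum per cell, and in 4528 of 4528 cells it equalled, within 1e-06, log2 of the summed scores of the genes detected in that cell. It therefore counts genes, not UMIs. Its median was 6.06 (WT), 5.98 (KO A) and 6.11 (KO B), and the median cell detected 4158, 3936 and 4328 genes. The order of the libraries was the same for both. After each cell was thinned to 5000 UMIs, with 0 cells left out, the sum was 5.35 in WT against 5.42 in KO A and 5.41 in KO B, with 2467, 2628 and 2587 genes detected, so that WT became the lowest. Per 1000 detected genes the thinned cells held a summed score of 16.6 in WT against 16.3 in KO A and 16.4 in KO B. In cluster 2 the values were 16.5, 16.3 and 16.4, in cluster 4 they were 16.6, 16.3 and 16.4, and in cluster 1 they were 16.2 in all 3 libraries. The average score of a detected gene was thus slightly lower in KO than in WT in clusters 2 and 4, which is a description with no test. Over all germ cells the median thinned cell detected 85 members in each library. It detected 81 (WT), 86 (KO A) and 85 (KO B) comparison genes. The part of the number of genes detected in the average score was not tested.

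**Figure D5:**
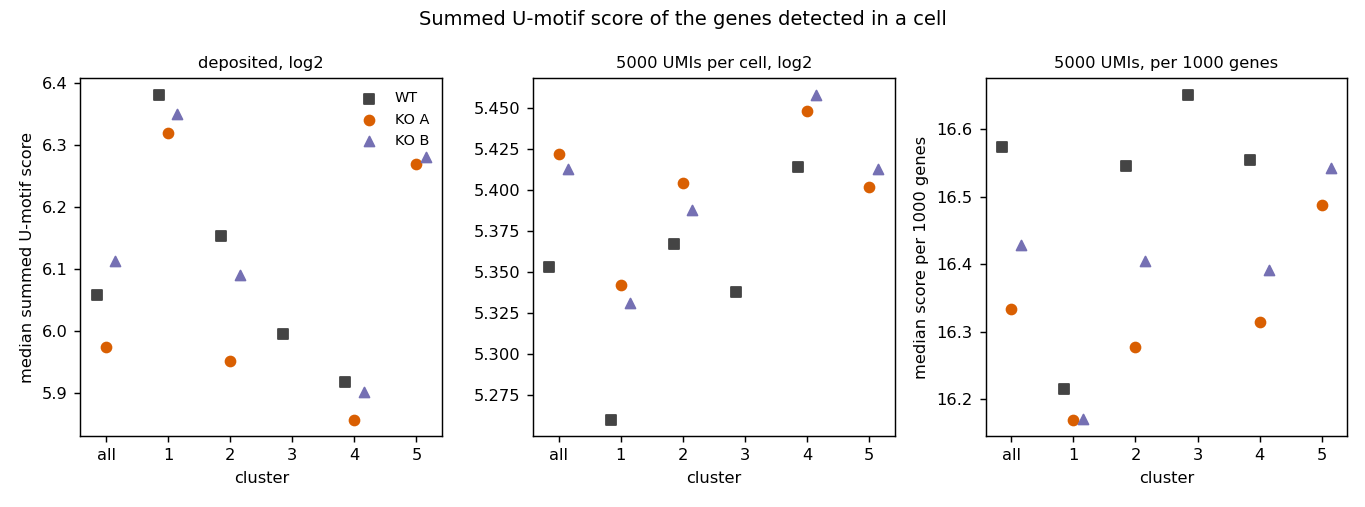
Medians over cells, by cluster (horizontal axis) and library, of the deposited log2 sum of U-motif scores, of the same sum after thinning to 5000 UMIs, and of the thinned score per 1000 detected genes (vertical axes do not start at 0; points with under 20 cells are left out). The deposited order of libraries is not kept after thinning, where WT over all cells is lowest at 5.35, and per detected gene WT is highest in clusters 2 and 4.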

How the data were processed

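Per the submitters' processing notes, Cell Ranger 3.0.2, Scanpy and the build mm10/GRCm38 were used. Values of the matrix the authors deposited are on the natural log scale, the log of 1 + count/size factor. The deposited cell table gives UMI counts and genes detected, a mitochondrial fraction, a size factor and a log2 U-motif sum, and each gene has a deposited U-motif score and a cell number, which reaches 6900 and so was counted before the authors' selection of 4528 cells. Undoing the log gave whole counts for 100% of values (within 0.001), with the deposited number of genes in 4528 of 4528 cells and 99.9% of the deposited UMIs. The KO libraries could not be tied to a particular KO sample. Other data of the series were not analysed here.

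Levels per library and class (all germ cells, cluster 2, cluster 1, clusters 3, 4 and 5) were tested with limma 3.58.1 (R 4.3.3; trend, empirical Bayes, Benjamini-Hochberg) for genes with a mean of at least 0.05. There was 1 residual degree of freedom, and prior degrees of freedom were 25, 11, 23.7 and infinite. The fit was tested on simulated data. Alternatives were a pseudocount of 0.1, no level filter, TMM scaling, edgeR 4.0.16 and DESeq2 1.42.0 on the recovered counts, and leaving out Scrublet doublets (6 WT, 5 KO A and 11 KO B cells), cells with 10 or more somatic UMIs, or 1 KO library. Score bins, cell number strata and cluster 4 alone were added with results known. Scores were rounded to 6 decimals. Members and gene lists were chosen with earlier results of these data known, and roles were assigned from symbols. Named genes were the 12 highest scores outside the unnamed families and, among called members with both KO libraries on 1 side of WT, an absolute log2 difference of at least 0.5 and a level of at least 0.2, up to 7 (all germ cells), 5 (cluster 2 and clusters 3, 4 and 5) or 3 (cluster 1) with the smallest p in each direction. Other genes are named as called members of their role.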

Additional observations from a re-analysis of the deposited data

How the results depend on the processing

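No paired analysis was possible because there is 1 WT library and the KO columns carry no number shared with it. Over all germ cells DESeq2 called 5 members higher and 22 lower, where 5.82% and 6.76% of all genes were called. The 100 highest scores had 8 and 20 by limma, where 18.3% and 14.8% of all genes were called, with a median of -0.096. A pseudocount of 0.1 gave a median of -0.099. The members' median stayed below 0 under each alternative run over all germ cells (-0.143 to -0.096), in cluster 2 (-0.169 to -0.087) and in clusters 3, 4 and 5 (-0.136 to -0.015). In cluster 2 higher and lower calls among members were 0 and 0 with no level filter, where 2 and 1 of all genes were called. They were 6 and 20 with TMM scaling (811 and 633 of all genes) and 6 and 19 with edgeR (763 and 649). They were 0 and 3 with DESeq2 (26 and 24) and 0 and 2 without doublets (92 and 21). Without cells with somatic UMIs they were 3 and 10 (355 and 220). In the 100 highest scores 3 were lower, where 1.43% of all genes were. Leaving out 1 KO library gave cluster 2 medians of -0.13 and -0.087. In cluster 1, 1 member was higher without doublets, where 168 of all genes were. With members from a cell number of 2000 or more, 1 was higher, where 0.644% of all genes were. Lower calls were 0 with no level filter, TMM scaling, edgeR and DESeq2, where 0, 122, 66 and 3 of all genes were called lower. They were 9 without cells with somatic UMIs, where 265 of all genes were lower. In the 100 highest scores they were 3, where 2.20% of all genes were lower. The members' median in cluster 1 was -0.001 with TMM scaling, 0.002 with edgeR, 0.0 with DESeq2 and -0.048 without cells with somatic UMIs. In clusters 3, 4 and 5 DESeq2 called 24 members higher, where 18.5% of all genes were. The 100 highest scores had 29 higher and 33 lower, where 37.4% and 29.1% of all genes were called. The members' median was -0.118 with TMM scaling, -0.117 with edgeR, -0.136 with DESeq2 and -0.015 in cluster 4 alone. It was -0.089 and -0.048 when 1 KO library was left out. The difference between clusters 2 and 1 was called for 1 member with a pseudocount of 0.1 and for 1 with TMM scaling. The cause of these changes was not tested. Single members with few UMIs in the 45 WT cells of cluster 1 and the 24 of cluster 4 are limited by depth.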
